A study of Homo sapiens with 8 samples.

Results

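The elements described here were the 431 genomic sites of a reporter library that the deposited table classes as HepG2_Pol2 and does not mark as scrambled, out of 3095 elements in all. The table does not define its class names. Read with the title of the series, this one names sites bound by CEBPB (CCAAT/enhancer-binding protein beta) in HepG2 and not in K562, with promoter-distal RNA polymerase II at the site. Neither binding was measured in these libraries, and the reporters give no endogenous RNA, so the class name could not be checked against the data. Of the 431 sites, 377 had enough plasmid reads to be tested, among 2332 tested elements. The reference was a scrambled version of the same element, present in the table for 325 of the sites and tested in 296 cases, and site and scramble were both tested in 267 cases.

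The assay, CRE-seq, is a massively parallel reporter assay in which each element sits on a plasmid with a luciferase gene whose 3′ UTR carries short barcodes. Each element had 4 barcodes of 9 bases. The plasmids were transfected with FuGENE into HepG2, a hepatocellular carcinoma line, and into K562, a leukaemia line that the labels call acute myelogenous. Each line had 2 independent transfections, and DNA and RNA barcodes were counted from each, giving 8 libraries of 9965393 to 10193122 reads. Neither line received another treatment that the labels name, and a transfected plasmid reports on an element outside its chromosomal place.

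CEBPB is a basic leucine zipper transcription factor that binds DNA as a dimer. In the liver it takes part in the acute-phase response, in metabolic gene expression and in regeneration. RNA polymerase II is found away from promoters mainly at enhancers, where it can transcribe short unstable RNAs, and most sites that a factor occupies are not known to act as enhancers.

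Activity is given as log2 RNA/DNA, the log2 ratio of a site's RNA reads to its DNA reads after scaling on the scrambled elements, so that 0 is the typical scramble. A site was called active in a cell line when edgeR's quasi-likelihood test gave a Benjamini-Hochberg adjusted p under 0.05 over all 2332 tested elements and the ratio exceeded that of 95% of tested scrambles, a cutoff of 0.66 in HepG2 and 0.52 in K562. Repressed sites passed the mirror rule, with cutoffs at the lowest 5% of scrambles, -0.45 and -0.52. A single site's value is written with its 2 transfections, the fitted value and its SE. That SE comes from an element's pooled reads, and disagreement among its barcodes is not part of it.

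Since barcodes are what was counted, those of 4 elements are shown in lower case, in the orientation of the table. They were picked to set elements whose barcodes were high together beside elements in which 1 barcode carried the signal. The element sequences themselves were not used here. Positions are those in the site names, and the submitters' processing notes name hg19.
chr17:74547258 barcode a: aacgaaccc
chr17:74547258 barcode b: taacgtgat
chr17:74547258 barcode c: tagctgtga
chr17:74547258 barcode d: ttcaggcaa
chr16:3156472 barcode a: agcttcatc
chr16:3156472 barcode b: cgtatcgcc
chr16:3156472 barcode c: gttacgtag
chr16:3156472 barcode d: ttgtaagta
chr6:132165459 barcode a: ccgtctgta
chr6:132165459 barcode b: cgaacatat
chr6:132165459 barcode c: cggatcttt
chr6:132165459 barcode d: gatccttgt
chr20:22504870 scramble barcode a: cctccactt
chr20:22504870 scramble barcode b: gaatacaag
chr20:22504870 scramble barcode c: ttaacgacg
The 4 barcodes of chr17:74547258, the most active of the 377 sites, stood at 5.27, 5.55, 5.67 and 5.26 in HepG2, as means of the 2 transfections. In K562 the same barcodes stood at -1.92, 0.07, 0.06 and -0.36, with the lowest resting on 31 and 17 DNA reads. The barcodes of chr16:3156472, the most active of these sites in K562, stood at 4.15, 4.23, 4.24 and 4.18 in HepG2 and at 2.49, 2.74, 2.93 and 2.64 in K562. In these 2 elements no barcode stood apart from the others in HepG2. The barcodes of chr6:132165459 stood at -0.55, 5.52, 0.23 and 0.97 in HepG2, so that 1 barcode lay far above the rest. The same was true of the scramble of chr20:22504870, with -1.11, -0.27 and 3.07.

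In HepG2, the line in which the class name places CEBPB, 117 of the 377 sites were active, 31.0% (95% exact Clopper-Pearson interval 26.4 to 36.0), while 14.0% of all tested elements were active. Their own scrambles were active in 15 of 296 cases, 5.07% (2.86 to 8.22). That share is held near 5% by the rule, whose cutoff is a percentile of all tested scrambles, and it is no independent measure of background. All tested bound sites, a set that holds these 377 and no scrambles, were active in 279 of 1286 cases, 21.7%. The intervals cover the sampling of elements and not the spread between transfections. The median site stood at 0.25 and 0.24 in the 2 HepG2 transfections, and the median of their own scrambles at -0.03 and -0.05, with all tested elements at 0.07 and 0.06. The sites' values were skewed upward, with a 10th percentile of -0.27, a median of 0.23, a 75th percentile of 0.88, a 90th of 2.06 and a maximum of 5.52. A log2 RNA/DNA above 1 was reached by 86 sites, above 2 by 41, above 3 by 17 and above 4 by 6. The activity of the 117 active sites ran from 0.66 to 5.53 with a median of 1.39, which is 2.62 times the typical scramble.

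The 2 HepG2 transfections placed the 377 sites in nearly the same order, with r = 0.971 (Pearson) and rho = 0.901 (Spearman) across sites. Sites share the plasmid pool and are not replicates, so no p is given. In all, the 431 sites took 17.8% to 18.0% of the reads of each DNA library in either line. They took 22.6% and 22.9% of the HepG2 RNA reads and 17.6% of the reads in each K562 RNA library. The 10 most active sites took 0.31% and 0.32% of the HepG2 DNA reads and 3.35% and 3.62% of the HepG2 RNA reads, against 0.32% and 0.34% of K562 RNA. The share active was similar at low and high plasmid abundance: in 4 equal groups by mean DNA reads the share active in HepG2 was 30.5%, 33.0%, 29.8% and 30.9%, over a range of 120.75 to 25621 reads per library.

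HepG2-bound sites without polymerase, the HepG2_NOPol2 class, counted 44 active of 298 in HepG2, 14.8%, with medians of 0.11 and 0.09 in the 2 transfections. Sites bound in both lines with polymerase, the Shared_Pol2 class, counted 55 of 150, 36.7%, with medians of 0.40 and 0.47. In each HepG2 transfection the HepG2-only sites with polymerase therefore lay between those classes. A log2 RNA/DNA above 2 was reached by 10.9% of them, 2.68% of the sites without polymerase and 16.7% of the shared sites. With 2 transfections a line, no test of these class differences over transfections was made.

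The most active site in HepG2, chr17:74547258, had 873 and 787 DNA reads and 22155 and 27678 RNA reads in the 2 HepG2 transfections. Its log2 RNA/DNA was 5.26 and 5.77, and the fit gave 5.53 (SE 0.17), a 46.1-fold excess (edgeR adjusted p = 1.35e-08). In K562 the same plasmids gave 789 and 772 DNA reads and 581 and 761 RNA reads, and the site stood at -0.21 and 0.23, on either side of the typical scramble. The second site, chr6:6748911, had more plasmid reads, 8584 and 9144, and stood at 4.43 and 4.40, a 21.3-fold excess with the smallest adjusted p of the 10 most active sites, 1.17e-10. Its 4 barcodes ran from 4.03 to 4.68 in HepG2 and from 0.04 to 0.43 in K562. The third, chr6:64275530, stood at 4.30 and 4.28 (19.6-fold, edgeR adjusted p = 1.38e-08), and in K562 at -0.33 and 0.16. For these 3 sites the value in each HepG2 transfection lay above that in each K562 transfection by more than 4 on the log2 scale.

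Of the other sites among the 10 most active, chr16:3156472 stood at 4.06 and 4.36 in HepG2 (fit 4.21, SE 0.10) and chr3:13512455 at 3.97 and 4.40 (fit 4.20, SE 0.14). Next came chr6:132165459 at 3.83 and 4.20 and chr19:47487856 at 3.79 and 4.15. The list ended with chr12:103279201 at 3.84 and 3.74, chr16:48238572 at 3.48 and 3.66, and chr6:43774214 at 3.20 and 3.44. The edgeR adjusted p of these 7 sites ran from 1.83e-09 to 1.52e-06. The exception was chr6:132165459, whose call rested on the barcode cgaacatat. Without its highest barcode the site stood at 0.43 (edgeR adjusted p = 0.426), and over its 14 alternative analyses the value ran from 0.43 to 4.20 and the adjusted p from 3.05e-74 to 0.426. The other 9 sites kept their call under each of the 14 alternatives run.

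In most sites active in HepG2 the barcodes were high together. All passing barcodes lay above the cutoff in 78 of the 117 sites, and all lay above 0 in 107. In 10 sites exactly 1 barcode lay above the cutoff. Among the sites active in K562, all lay above the K562 cutoff in 11 of 29, exactly 1 did in 5, and all lay above 0 in 23. Active sites had a median of 0.79 against a cutoff of 0.52 in K562, and of 1.39 against 0.66 in HepG2. Since K562-active sites lay nearer their cutoff, the counts above it do not compare how well barcodes agreed in the lines. Of the 260 sites that were not active in HepG2, none had all its barcodes above the cutoff. That result was nearly fixed in advance, since a site's value is the ratio of reads summed over the same barcodes. Just 2 of these sites lay past the cutoff. The median SD between barcodes of a site was 0.30 in HepG2 and 0.32 in K562.

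Few of the sites were repressed in HepG2: 4 of 377, 1.06%, where 2.44% of all tested elements were called. They were chr20:10585311 at -0.51 and -0.45 (edgeR adjusted p = 0.000886), chr16:4714206 at -0.46 and -0.45 (0.00422), chr14:35816941 at -0.55 and -0.36 (0.00302) and chr16:70759410 at -0.33 and -0.57 (0.013). Each had 4 barcodes, all below 0 in HepG2. The values lay close to the cutoff, and none of the 4 calls held under every alternative. Without HepG2 replicate 1 none of the sites was repressed, and without HepG2 replicate 2 there were 2, of which 1 was among these 4. Over the alternatives the highest adjusted p was 0.0522 for chr20:10585311, 0.205 for chr16:4714206, 0.121 for chr14:35816941 and 0.295 for chr16:70759410. With the replicate block chr16:70759410 stood at -0.45 (edgeR adjusted p = 0.0102) and was no longer past the cutoff. Nearest above the upper cutoff was chr17:77967623, called active, at 0.63 and 0.69, and its call was lost under 4 of 14 alternatives. Nearest below the upper cutoff was chr11:118065993, not called, at 0.80 and 0.51, and the fit gave 0.66 for each. Another 2 sites lay past the cutoff but did not pass the test.

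In K562, the line without binding by the class name, 29 of the 377 sites were active, 7.69% (95% exact interval 5.21 to 10.9), and 8.15% of all tested elements were. The share was thus near that of the whole table, which counts scrambles too. It was below the 12.8% of all tested bound sites (164 of 1286). Own scrambles were active in 8 of 296 cases, 2.70% (1.17 to 5.26), a share that the rule again limits, HepG2-bound sites without polymerase in 23 of 298, 7.72%, and shared sites with polymerase in 49 of 150, 32.7%. The median site stood at 0.06 and 0.07 in the 2 K562 transfections and the median own scramble at -0.01 and 0.01. No site exceeded a log2 RNA/DNA of 3 in K562, 2 exceeded 2, and 13 exceeded 1. The 29 active sites ran from 0.53 to 2.74 with a median of 0.79, a 1.73-fold excess. The transfections repeated less closely than in HepG2, with r = 0.559 (Pearson) and rho = 0.435 (Spearman) across the 377 sites, and the fit shares 1 estimate of spread per element between the lines.

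The most active site in K562 was chr16:3156472, with 1281 and 1189 DNA reads and 6852 and 7075 RNA reads. It stood at 2.64 and 2.83, a 6.66-fold excess (edgeR adjusted p = 5.87e-08), and in HepG2 it was the fourth most active. Next came chr20:40322133 at 2.32 and 2.22 (4.82-fold, edgeR adjusted p = 3.53e-08). Its 4 barcodes ran from 2.03 to 2.46 in K562 and from 2.91 to 3.47 in HepG2. Further down were chr14:34966212 at 1.69 and 1.52, chr1:19664749 at 1.56 and 1.59, chr20:31053498 at 1.39 and 1.45, and chr16:89904240 at 1.16 and 1.64. All 6 were also active in HepG2 and kept their K562 call under each alternative run. Nearest above the K562 cutoff was chr16:85215542 (0.52 and 0.55), called active, and nearest below it chr6:3790199 (0.47 and 0.57), not called. In chr16:85215542 just 1 of 4 barcodes lay above the cutoff, at 1.12. Its K562 call was lost under 6 of 14 alternatives, with values down to 0.08. Another 7 sites lay past the K562 cutoff but did not pass the test.

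Sites repressed in K562 were also 4 of 377, 1.06%, where 1.24% of all tested elements were called. They were chrX:179383 at -0.75 and -0.85 (edgeR adjusted p = 0.0113), chr3:13512455 at -0.73 and -0.77 (0.00474), chr2:113575772 at -0.44 and -0.72 (0.047) and chr6:167722251 at -0.58 and -0.53 (0.0167). The first 2 were active in HepG2, chrX:179383 at 2.41 and 2.22 and chr3:13512455 at 3.97 and 4.40. None of the 4 repressed calls held under every alternative, with highest adjusted p of 0.118, 0.157, 0.258 and 0.111. With any 1 of the 4 transfections left out, just 1 of the 4 sites kept its call. Sites repressed in K562 then numbered 1 without either HepG2 replicate, 2 without K562 replicate 1 and 4 without K562 replicate 2, most of the latter being other sites. With the replicate block chr6:167722251 stood at -0.56 (edgeR adjusted p = 0.0336) and was likewise no longer past the cutoff. With each cell line fitted alone none of the sites was repressed in K562.

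Most activity was seen in HepG2 alone. Of the 377 sites, 93 were active in HepG2 and not in K562, 24 in both lines, 5 in K562 and not in HepG2, and 255 in neither. Over all 2332 tested elements the same counts were 207, 120, 70 and 1935, so HepG2 alone was the commonest active group there too. In the same order they were 34, 10, 13 and 241 of 298 sites without polymerase, and 18, 37, 12 and 83 of 150 shared sites. The 93 had a median of 1.41 in HepG2 and 0.12 in K562. The 24 had medians of 1.38 in HepG2 and 0.94 in K562, so in HepG2 the medians of these groups differed little. Both groups were picked on these same values. The high HepG2 medians, and the low K562 median of the 93, therefore follow from the rule. Across the 377 sites the activity in the lines had r = 0.323 (Pearson) and rho = 0.395 (Spearman), as a description.

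A test of the difference between lines, which the counts above do not give, was made in the same edgeR fit. It called 109 sites higher in HepG2, 28.9%, and 6 lower, 1.59%, where 12.8% and 3.95% of all tested elements were called. Over all tested bound sites, without scrambles, these shares were 19.1% and 5.29%. The 109 sites had a median difference of 1.25. Own scrambles were called higher in 19 of 296 cases, 6.42%, and lower in 9, sites without polymerase higher in 41 of 298, 13.8%, and shared sites higher in 50 of 150, 33.3%, and lower in 13. Among the 117 sites active in HepG2, 96 were higher there than in K562, 20 did not pass in either direction and 1 was lower. Of the 93 active in HepG2 and not in K562, 83 passed and 10 did not, so that for these 10 a difference between the lines was not shown. Both groups were picked on the same reads that this test used. The high shares that passed were therefore largely set by that choice and are no separate evidence.

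The largest differences were those of chr17:74547258, at 5.50 (SE 0.23, edgeR adjusted p = 3.59e-07), and chr3:13512455, at 4.95 (SE 0.19, edgeR adjusted p = 2.59e-07). The latter had 425 and 370 RNA reads in K562 against 8007 and 9760 in HepG2, from 715 to 828 DNA reads in each of the 4 transfections. Its 3 barcodes ran from 3.90 to 4.76 in HepG2 and from -2.80 to -0.29 in K562, without overlap. Next were chr6:64275530 at 4.36, chr6:132165459 at 4.26 and chr6:6748911 at 4.17. Of these 5 differences that of chr6:132165459 was lost when its highest barcode was dropped or the barcode median used, with values from 0.75 to 4.83 and adjusted p from 5.73e-41 to 0.381 over its 12 alternatives. The other 4 differences passed under all 12 alternatives run.

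The 6 sites lower in HepG2 differed by -0.75 to -0.34, far less than the sites that were higher. The 5 with the largest differences were chr13:24758002 at -0.75, chr14:35816941 at -0.53, chr16:55794343 at -0.50, chr16:3414878 at -0.49 and chr16:84633254 at -0.35, with edgeR adjusted p of 0.0142, 0.0154, 0.02, 0.0111 and 0.0211. The highest adjusted p over their 12 alternatives were 0.264, 0.178, 0.134, 0.249 and 0.227. Of these sites chr13:24758002 was active in K562, at 1.35 and 1.38, and at 0.51 and 0.72 in HepG2 missed the cutoff. Both lines showed activity for chr16:3414878, at 0.79 and 0.54 in HepG2 and 1.20 and 1.12 in K562. Without HepG2 replicate 1 there was 1 site lower in HepG2, and without HepG2 replicate 2 there was none.

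Among the 24 sites active in both lines, 13 were higher in HepG2, 10 did not pass and 1 was lower. In chr16:3156472 the lines differed by 1.47 (SE 0.13, edgeR adjusted p = 3.2e-05), in chr20:31053498 by 1.75 (SE 0.13, adjusted p = 1.47e-05) and in chr20:40322133 by 0.92 (SE 0.09, adjusted p = 0.000108). All 3 were several-fold above the typical scramble in both lines and higher in HepG2. For chr1:19664749 the fitted values were 1.56 in HepG2 and 1.58 in K562, a difference of -0.02 (SE 0.16, edgeR adjusted p = 0.963), and for chr14:34966212 they were 1.39 and 1.61 (difference -0.22, SE 0.10, adjusted p = 0.22). Neither difference passed, which does not show that the lines were alike. Less firm was chr1:41405547, at 2.07 and 2.56 in HepG2 and 1.20 and 1.59 in K562. Its K562 call was lost when the highest barcode was dropped or the barcode median used, with values down to 0.55 and adjusted p up to 0.531 over 14 alternatives. Another was chr20:5130897, at 2.44 and 2.24 in HepG2 and 1.27 and 1.15 in K562, with 219 to 321 DNA reads per library. Its HepG2 call was lost under the same pair of alternatives, with values down to 0.35 and adjusted p up to 0.888 over 13. Without its highest barcode, ataactccc, chr20:5130897 stood at -0.58 in K562 (edgeR adjusted p = 0.754), and its K562 adjusted p over 13 alternatives ran from 0.0032 to 0.754. Leaving out any 1 of the 4 transfections also ended its K562 call.

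Set against its own scramble, a site is compared within its library, so that the library scaling cancels. It was tested with limma on the log2 difference of site and scramble in each transfection, adjusted over all 901 tested pairs. In HepG2, 100 of the 267 sites were above their scramble, 37.5%, and 22 below, 8.24%, where 29.1% and 7.88% of all tested pairs were called. The median difference was 0.28 and 0.25 in the 2 transfections, and 177 sites, 66.3%, had a positive fitted difference. Sites without polymerase were above in 42 of 222 pairs, 18.9%, and shared sites with polymerase in 47 of 98, 48.0%. Without HepG2 replicate 1 there were 8 sites below their scramble in HepG2, and without HepG2 replicate 2 there were 13.

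Of the 117 sites active in HepG2, 80 had a tested scramble, and 72 of these were above it. A further 6 did not pass, and 2 were below. Among 187 inactive sites 28 were above their scramble and 20 below. Sites were sorted into active and inactive on the same HepG2 reads that this comparison used. The scramble was itself active for 7 of the 80 active sites. The high share of active sites above their scramble was therefore largely set by that choice. It is no separate evidence of activity. The largest differences were those of chr19:47487856, at 3.49 and 4.93 (4.21 in the mean, SE 0.37, limma adjusted p = 6.18e-07), chr16:3156472, at 4.17 and 4.04 (4.11, SE 0.31, adjusted p = 1.5e-07), and chr16:48238572, at 3.75 and 4.06 (3.91, SE 0.20, adjusted p = 3.35e-09). Next were chr12:103279201 at 3.74 and 3.70 and chr3:13512455 at 3.10 and 3.78. The scramble of chr3:13512455 was itself active, at a fitted 0.75, with 1 of its 4 barcodes at 1.83 and the others between -0.08 and 0.11. All 5 differences passed under each alternative run.

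Some of the sites that lay below their scramble had an active scramble. The scramble of chr1:225133826 stood at 1.91 and 1.95 in HepG2 and at -0.13 and -0.14 in K562, while the site was active in HepG2 at a fitted 0.98 (SE 0.10). The site was thus below by -0.96 (SE 0.15, limma adjusted p = 0.000144), a call lost without the highest barcode, with adjusted p up to 0.114 over its 14 alternatives. The other active site below its scramble, chr16:46929966, named after its values were seen, stood at 0.82 and 0.87 against a scramble fitted at 1.25. For chr20:22504870 the difference was -2.03 and -2.78 (limma adjusted p = 2.15e-05), but its scramble rested on the barcode ttaacgacg. Without the highest barcode of each element it was 0.59 (adjusted p = 0.638), and over 13 alternatives the adjusted p ran from 7.22e-20 to 0.647. For chr3:170763374 the difference was -0.80 and -1.49 (limma adjusted p = 0.00552), and without HepG2 replicate 2 or without the highest barcode it no longer passed, with adjusted p up to 0.301 over the alternatives. For chr19:45074781 it was -0.80 and -0.93 (limma adjusted p = 0.0208), lost without either HepG2 replicate, with adjusted p up to 0.761. That call was also lost without the highest barcode, with the barcode median and with a constant prior, and the values ran up to -0.16. In HepG2 its scramble had 1 barcode at 1.56, and the others lay between -0.47 and 0.01. Of these sites chr22:37428008, at -0.90 and -1.01 (limma adjusted p = 0.00035), passed under all 14 alternatives, the highest adjusted p being 0.0483.

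In K562, 34 of the 267 sites were above their scramble, 12.7%, and 12 below, 4.49%, where 15.2% and 4.44% of all tested pairs were called. Both shares were thus near those of the whole table. Sites without polymerase were above in 17 of 222 pairs, 7.66%, and shared sites with polymerase in 34 of 98, 34.7%. The median difference of the 267 sites was 0.11 and 0.09 in the 2 transfections. The largest, that of chr3:186238854, was 1.75 in one transfection and 5.04 in the other, and its scramble had 85 and 2 RNA reads in K562. That call was lost under 3 of 13 alternatives, with adjusted p up to 0.161. More even were chr20:40322133, at 2.61 and 2.41 (limma adjusted p = 1.21e-07), and chr16:3156472, at 2.13 and 2.19 (adjusted p = 0.000212), which passed under each alternative run. Below their scramble were chr20:22504870 at -0.98 and -1.17, chr2:113575772 at -0.90 and -0.99, and chr19:952719 at -0.43 and -0.95, with limma adjusted p of 0.0235, 0.00557 and 0.00725. Each of these 3 calls was lost under some alternative, that of chr19:952719 without K562 replicate 2, with highest adjusted p of 0.159, 0.0648 and 0.135. The K562 difference of chr20:22504870 turned sign without the highest barcode of each element, to 1.64. The scrambles of chr20:22504870 and chr19:952719 were themselves active in K562, at fitted values of 1.04 and 0.60. These sites themselves stood at a fitted -0.04 and -0.06 in K562 and were not called. Without K562 replicate 2 6 sites were below their scramble in K562, of which 3 were among these 12.

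The excess over the scramble was tested between the lines in the same limma fit. It was larger in HepG2 for 68 of the 267 sites and larger in K562 for 9, 25.5% and 3.37%, where 16.2% and 4.77% of all tested pairs were called. For shared sites with polymerase it was larger in HepG2 in 25 of 98 pairs, also 25.5%, and larger in K562 in 9.18%. For sites without polymerase the shares were 11.3% and 2.70% of 222 pairs. The difference was largest in chr3:13512455, chr19:47487856, chr16:48238572 and chr12:103279201 among the sites named above, at 4.19, 4.14, 3.92 and 3.73. Larger in K562 were 5 sites without HepG2 replicate 1, 4 of them among these 9, and 21 without K562 replicate 1. Sites above their scramble in both lines numbered 25, and those below in both numbered 2. In 5 sites the calls were opposite. Such counts were not made over all 901 tested pairs, so they cannot be set against the whole table. The 5 sites are named here after their values were seen. In chr15:57789421 the difference from the scramble was 1.46 in HepG2 and -0.48 in K562, in chr16:85548718 1.89 and -0.45, and in chr19:57412057 1.43 and -0.58. In chr3:5028602 it was -0.64 and 0.79, and in chr14:35816941 -0.37 and 0.38. Each of these 5 rests on a call below a scramble, and such calls held under all 14 alternatives for 3 of 22 sites in HepG2 and 0 of 12 in K562.

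Another bound site of the library lay within 10 kb of 71 of the 377 sites. Of these 71, 13 were active in HepG2, 18.3%, against 104 of the 306 others, 34.0%, as a description with no test. In 24 neighbour pairs both sites belonged to the class described here, and in 1 of these pairs both were active, in 6 pairs 1 was, and in 17 neither was. Over all 44 tested neighbour pairs with at least 1 such site these counts were 4, 12 and 28. Pairs of sites that are not neighbours were not counted, so these numbers do not show whether neighbours were more alike or less alike. Examples chosen after their values were seen were chr7:156408363 at a fitted 2.59, with chr7:156407411 at -0.09 and 952 bp away, and chr20:49016820 at 3.20, with chr20:49015542 at 0.07 and 1278 bp away. The pair with both active was chr18:13175972 at 1.25 and chr18:13179693 at 0.88, 3721 bp apart.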

How the data were processed

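The deposited file is 1 table of raw read counts per barcode for the 8 libraries, per the file headers. The submitters' processing notes name cutadapt and hg19, and no counting step is recorded in the sources. Library totals are nearly equal, and whether the authors drew reads down to equal depth is not given. There are no molecular identifiers, so intervals cover counting or element sampling only.

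A barcode needed 10 or more reads in each DNA library, and an element 3 or more such barcodes, whose reads were summed and tested. edgeR 4.0.16 (R 4.3.3) fitted 4 groups, scaled by TMM on scrambles, without a block. Values per transfection used a pseudocount of 1. limma 3.58.1 tested site minus scramble with a variance prior trended on DNA reads. DESeq2 1.42.0, other scalings, barcode and count rules, a replicate block and leaving out each transfection were alternatives. The fits were checked on simulated data. These had equal spread in both lines, no disagreement among barcodes beyond counting spread and no link of DNA and RNA within a transfection. The check therefore does not cover those features of the real libraries.

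DNA and RNA with 1 number come from the same transfection per the labels, and their deviations correlated at 0.301 in HepG2 and 0.241 in K562 over 2332 elements. Between transfections the log2 difference over scrambles had an SD of 0.32 in HepG2 and 0.501 in K562.

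Sites named are the 10 most active in HepG2, the 6 in K562, the 5 largest called differences between lines in each direction, the 5 against the scramble in HepG2 and 3 in K562 in each direction, the 8 active in both with the highest lower value, up to 5 repressed per line, the own scrambles, and the sites next to each cutoff. The members and these lists were chosen with earlier results of these data known. No genome of the build was used, so no site is assigned to a gene and no motif was searched.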

Additional observations from a re-analysis of the deposited data

Results flagged for a closer look

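Differences between the cell lines were called for 109 sites higher in HepG2 and 6 lower, and the excess over the scramble was called larger in HepG2 for 68 sites and larger in K562 for 9. By the edgeR test of the HepG2-minus-K562 difference, 24 of the named sites differed between the lines. The values were 5.50 for chr17:74547258, 4.95 for chr3:13512455, 4.36 for chr6:64275530, 4.26 for chr6:132165459, 4.17 for chr6:6748911 and 4.02 for chr19:47487856. They were 3.70 for chr12:103279201, 3.67 for chr6:43774214, 3.60 for chr16:48238572, 3.11 for chrX:179383 and 2.27 for chr3:186238854. Smaller differences were 1.75 for chr20:31053498, 1.47 for chr16:3156472, 0.92 for chr20:40322133, 0.89 for chr6:167722251, 0.87 for chr16:89904240, 0.74 for chr1:225133826, 0.73 for chr17:77967623 and 0.58 for chr11:118065993. Lower in HepG2 were chr16:84633254 at -0.35, chr16:3414878 at -0.49, chr16:55794343 at -0.50, chr14:35816941 at -0.53 and chr13:24758002 at -0.75.

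The 54 sites left untested, for having fewer than 3 barcodes with enough DNA reads, were also fitted with no minimum count. At that setting 96 of the 431 sites were active in HepG2, and the share over all elements was not counted. At the main setting 14.0% of all tested elements were active. Of the 54, 7 passed the rule for activity in HepG2, each with 1 or 2 barcodes that met the minimum. They were chr1:229357038 at 5.32, chr1:59218709 at 2.96, chr1:53649195 at 2.62, chr12:24222945 at 2.10, chr20:51697947 at 1.31, chr6:113964035 at 1.09 and chr20:22410161 at 0.996. In K562 chr12:24222945 passed at 1.33. Repressed in HepG2 was chr17:7068572, at -0.52 (edgeR adjusted p = 0.0032), with a mean of 5930 DNA reads per library and 2 passing barcodes. The RNA reads of chr1:229357038 were 3944 and 4397 in HepG2 and 190 and 161 in K562, on a mean of 142 DNA reads per library, and 2 of its 4 barcodes met the minimum.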

How the results depend on the processing

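Excluding the stricter percentile, 79 of the 117 HepG2-active sites stayed active under all 13 alternatives, 15 of 29 in K562, and 69 of 109 stayed higher in HepG2 under 12. Above their scramble 61 of 100 stayed in HepG2 and 11 of 34 in K562 under 14, and below it 3 of 22 and 0 of 12. Of the sites lower in HepG2 0 of 6 stayed under 12, of those repressed 0 of 4 in either line, and of those with a larger excess in K562 1 of 9. The 99th percentile of scrambles left 69 active sites in HepG2, 14 in K562 and 0 repressed in either line. The HepG2 median of 0.23 was 0.14 with TMM on all elements, 0.21 with no minimum count, 0.25 with at least 50 reads, 0.18 without the highest barcode, 0.16 with the barcode median, and 0.23 to 0.25 with a replicate left out. The K562 median of 0.07 was 0.027 with TMM on all elements and 0.013 with the median over barcodes. The median against the scramble was 0.27 in HepG2 with no minimum count or with the barcode median (0.23 to 0.28 with a replicate left out), and in K562 0.083 with no minimum count and 0.13 without the highest barcode (0.089 to 0.11). Sites above their scramble in K562 were 18 with the median over barcodes and 14 with a constant prior. Those below were 7 without the highest barcode, 6 with the median and 11 with a constant prior in HepG2 (8 to 30 with a replicate left out), and 6, 0 and 2 in K562 (6 to 18). Sites with a larger excess in K562 were 2, 4 and 5 under these settings (5 to 21). Sites lower in HepG2 were 10 with DESeq2, 1 with the highest barcode dropped and 2 with the median (0 to 7). Repressed in HepG2 was 1 site with no minimum count and 1 without the highest barcode, neither among the reported 4, and 1 of the 4 with the median (0 to 4), and in K562 0 with no minimum count, 2 without the highest barcode and 0 with each line alone (1 to 4). Signs turned for chr20:22504870 against its scramble with the highest barcode dropped (0.59 in HepG2, 1.64 in K562) and with the median (1.55 in K562), and for chr20:5130897 in K562 (-0.58 and -1.45). The cause was not tested. The replicate block gave 117 active sites in HepG2 and 32 in K562, 3 repressed in each, 112 higher and 5 lower in HepG2. Of 63 named results, 33 kept direction and call under every alternative run. K562 values varied more between transfections than HepG2 values. Depth limits the K562 excess of chr3:186238854, whose scramble had 85 and 2 RNA reads.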
